A study of Mus musculus with 14 samples.

Results

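The genes described here are 10 genes of the circadian clock and of its direct output, listed by name: Dbp, Hlf, Tef, Per1, Per2, Per3, Nr1d1, Nr1d2, Ciart and Bhlhe41. They are 10 of the 41739 genes in a table of TPM, transcript levels scaled by gene length and library total, from mouse microglia, the resident macrophages of the brain, and all 10 were among the 18724 genes tested. They were chosen by function and with their measured TPM in the 4 groups of libraries already known. The levels below are therefore a description, without printed p-values. Calls of these genes in the fit over all genes are no separate support. The groups were 4 KO LPS, 4 WT LPS, 3 KO PBS and 3 WT PBS libraries. KO mice carried floxed Rheb alleles (Rheb F/F) and a tamoxifen-inducible Cre recombinase under the microglial gene Tmem119 (Tmem119-cre ER). WT mice carried Rheb F/F alone, so every KO library and no WT library held Cre. All mice had tamoxifen, were aged 8 weeks, and received intraperitoneal LPS, the bacterial endotoxin, at 1.0 mg/kg or PBS daily on 4 days. Microglia were then taken from the brain with magnetic beads (MACS). Whether each library is a separate animal is not stated, and no time of day of injection or collection is given.

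The mammalian clock is a feedback loop of transcription. CLOCK (or NPAS2) and BMAL1, the product of Arntl, bind E-boxes and switch on the Per and Cry genes, whose proteins then block them, while the receptors encoded by Nr1d1 and Nr1d2 (REV-ERB alpha and beta) and the ROR proteins act on Arntl from the same element, REV-ERB as repressors and ROR as activators. Dbp, Hlf and Tef encode the PAR bZIP factors, which carry the rhythm to further genes through D-boxes, where the product of Nfil3 competes with them. In mouse liver the transcripts of Dbp, Nr1d1 and the Per genes are high by day into the evening, and that of Arntl is high around the opposite time, with Npas2, Cry1 and Nfil3 also late in the night; microglia are known to hold a running clock as well.

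The promoters are shown because these 3 elements tie the genes to each other. RefSeq promoter windows of GRCm38.p6, from 250 bases before to 50 bases after the annotated start, were found for 9 of the 10 genes, in 11 windows. They were searched on both strands for the E-box CACGTG, the D-box TTATGTAA or TTACGTAA, and the ROR element, no pair of which overlapped in the stretches printed. Of 32851 promoters in the table, 7.15% held the E-box, 1.06% the D-box and 0.435% the ROR element. Below, capitals mark the element, each sequence reads 5′ to 3′ on the gene's own strand, and Arntl is added as the target of the Nr1d receptors. Ciart (chr3:95882247-95882364, minus strand) held 3 E-boxes, the nearest beginning 44 bases before the start. Bhlhe41 (chr6:145865548-145865593, minus strand), Per1 at its upstream start (chr11:69098763-69098808, plus strand) and Tef at each of its starts (chr15:81802526-81802571 and chr15:81811256-81811301, plus strand) held an E-box each. Per3 (chr4:151044796-151044890, minus strand) held 2 D-boxes, and Arntl at its downstream start (chr7:113207528-113207557, plus strand) a ROR element 28 bases after that start. The other windows of Per1 (chr11:69099902-69100201) and Arntl (chr7:113207215-113207514) held none of the 3 elements.
Ciart: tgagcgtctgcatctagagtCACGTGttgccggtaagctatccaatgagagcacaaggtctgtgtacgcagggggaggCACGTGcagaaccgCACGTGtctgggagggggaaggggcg
Bhlhe41: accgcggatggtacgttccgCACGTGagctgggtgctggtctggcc
Per1: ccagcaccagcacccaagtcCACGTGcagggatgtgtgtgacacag
Tef, upstream start: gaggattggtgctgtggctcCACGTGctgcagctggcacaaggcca
Tef, downstream start: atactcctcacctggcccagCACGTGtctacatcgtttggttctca
Per3: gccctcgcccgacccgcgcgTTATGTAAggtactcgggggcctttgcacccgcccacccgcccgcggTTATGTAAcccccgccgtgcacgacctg
Arntl: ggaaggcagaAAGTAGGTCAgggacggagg
The windows of Dbp, Hlf, Nr1d1 and Nr1d2 held none of these letters, which says nothing of elements elsewhere in those genes. The genes shown with an E-box differ in the levels given below: under PBS, Tef was lower in all KO libraries than in any WT library, Per1 and Ciart overlapped and Bhlhe41 was higher.

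Recovered from the TPM values and given in M (mega) reads, depth was 8.00 to 21.8 M in KO LPS, 19.3 to 32.3 M in WT LPS, 16.3 to 20.7 M in KO PBS and 15.7 to 18.1 M in WT PBS libraries. Rheb itself averaged 18.2 ± 1.43 TPM in KO PBS and 32.1 ± 2.39 TPM in WT PBS libraries (SD, n = 3 each, limma adjusted p = 0.0163), and 22.7 ± 2.43 TPM in KO LPS and 30.8 ± 3.83 TPM in WT LPS libraries (SD, n = 4 each, limma adjusted p = 0.11). The design text names female mice. The X-inactivation transcript Xist was at 255 to 574 TPM in LPS libraries and at 0.0501 to 0.147 TPM in PBS libraries, and the Y-linked Ddx3y at 0 to 0.270 TPM in LPS and 111 to 146 TPM in PBS libraries. The transcript Gm23935 alone took 4.04% to 15.4% of all TPM in LPS libraries and 0.0566% to 0.248% in PBS libraries. LPS, the sex-linked transcripts and the Gm23935 share therefore ran together and cannot be told apart. Each KO to WT comparison, in contrast, lies within a single kind of library. Transcripts of the pituitary hormone gene Gh marked out KO_LPS_3, with 19672 TPM, and WT_PBS_914, with 78126 TPM, while none of the other 12 libraries passed 1.90 TPM. Microglial markers summed to 14812 to 20494 TPM in KO LPS, 19750.2 to 24519.9 TPM in WT LPS, 32134 to 34008 TPM in KO PBS and 29036 to 37184 TPM in WT PBS libraries over 12 genes, so the labelled cell type was present in all.

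Under PBS, the 3 PAR bZIP genes stood in every KO library below every WT library. Dbp (ENSMUSG00000059824) had 6.92 TPM in KO_PBS_911, 11.8 TPM in KO_PBS_912 and 8.22 TPM in KO_PBS_915, against 23.4 TPM in WT_PBS_904, 23.7 TPM in WT_PBS_913 and 17.6 TPM in WT_PBS_914, and the values of other genes follow the same order of libraries. Hlf (ENSMUSG00000003949) had 8.1, 10.3 and 5.14 TPM in the KO libraries, against 23.6, 23.9 and 21.5 TPM in the WT libraries. Tef (ENSMUSG00000022389) had 31.6, 35.3 and 28.3 TPM in the KO libraries, against 78.2, 76.6 and 56.3 TPM in the WT libraries. The KO mean was thus 41.7% of the WT mean for Dbp, 34.2% for Hlf and 45.1% for Tef. On the log2(TPM + 1) scale, which understates the change of low genes, the differences KO minus WT were -1.19 ± 0.24 for Dbp, -1.48 ± 0.30 for Hlf and -1.11 ± 0.19 for Tef (SE of the fit over 14 libraries). In bulk RNA, fewer cells of a type and less RNA per cell cannot be told apart. The 539 exonic bases that Dbp shares with Sphk2 on the opposite strand, 18.0% of the gene, and 2.45% of Tef shared with Gm17597 leave those reads uncertain, as the strand of counting is not stated.

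The Nr1d receptors, which repress Arntl, also lay lower in all KO PBS libraries. Nr1d1 (ENSMUSG00000020889) had 9.46, 30.5 and 17.2 TPM in KO, against 43.8, 47.6 and 41.4 TPM in WT. Nr1d2 (ENSMUSG00000021775) had 44.7, 71.9 and 44.3 TPM in KO, against 92, 95.4 and 75 TPM in WT. The groups did not overlap for either gene, though for Nr1d2 the highest KO library, KO_PBS_912, came within a few TPM of the lowest WT library, WT_PBS_914. The differences were -1.31 ± 0.38 for Nr1d1 and -0.73 ± 0.21 for Nr1d2 (log2, SE). The log2 difference of Nr1d1 ran between -1.71 without KO_PBS_912 and -0.91 without KO_PBS_911. Of Nr1d1, 8.55% of the exonic bases overlap Thra on the opposite strand.

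The 3 Per genes, which encode the repressors of CLOCK and BMAL1, did not behave alike. Per2 (ENSMUSG00000055866) had 7.42, 8.08 and 6.2 TPM in KO PBS, against 13.3, 14 and 11.6 TPM in WT PBS libraries. Per3 (ENSMUSG00000028957) had 6.12, 10.9 and 5.18 TPM in KO, against 12.8, 14.5 and 16.1 TPM in WT. Per1 (ENSMUSG00000020893), the most abundant of the 10 genes in every group, had 175, 141 and 104 TPM in KO, against 118, 148 and 105 TPM in WT. Per2 and Per3 were lower in all KO libraries, with log2 differences of -0.77 ± 0.24 and -0.94 ± 0.32, while Per1 overlapped between the groups at 0.16 ± 0.18 (SE). Per1, which is also known to be induced acutely by stimuli through CREB and by glucocorticoids, turned to -0.01 when KO_PBS_911 was left out.

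Ciart (ENSMUSG00000038550), which encodes a repressor of CLOCK and BMAL1 also called CHRONO, had 8.52, 6.23 and 3.89 TPM in KO PBS libraries, against 6.91, 13.7 and 6.55 TPM in WT PBS libraries. These groups overlapped, and the log2 difference was -0.46 ± 0.39 (SE) on 49 to 352 reads per library over all 14 libraries. Bhlhe41 (ENSMUSG00000030256), the E-box repressor DEC2, was the exception in direction, with 72.1, 81 and 71.1 TPM in KO and 59.8, 55.3 and 53.4 TPM in WT libraries. All 3 KO libraries lay above all 3 WT libraries, at a log2 difference of 0.41 ± 0.14 (SE). Bhlhe41 shares 19.0% of its exonic bases with Gm43909 on the opposite strand.

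**Figure D1:**
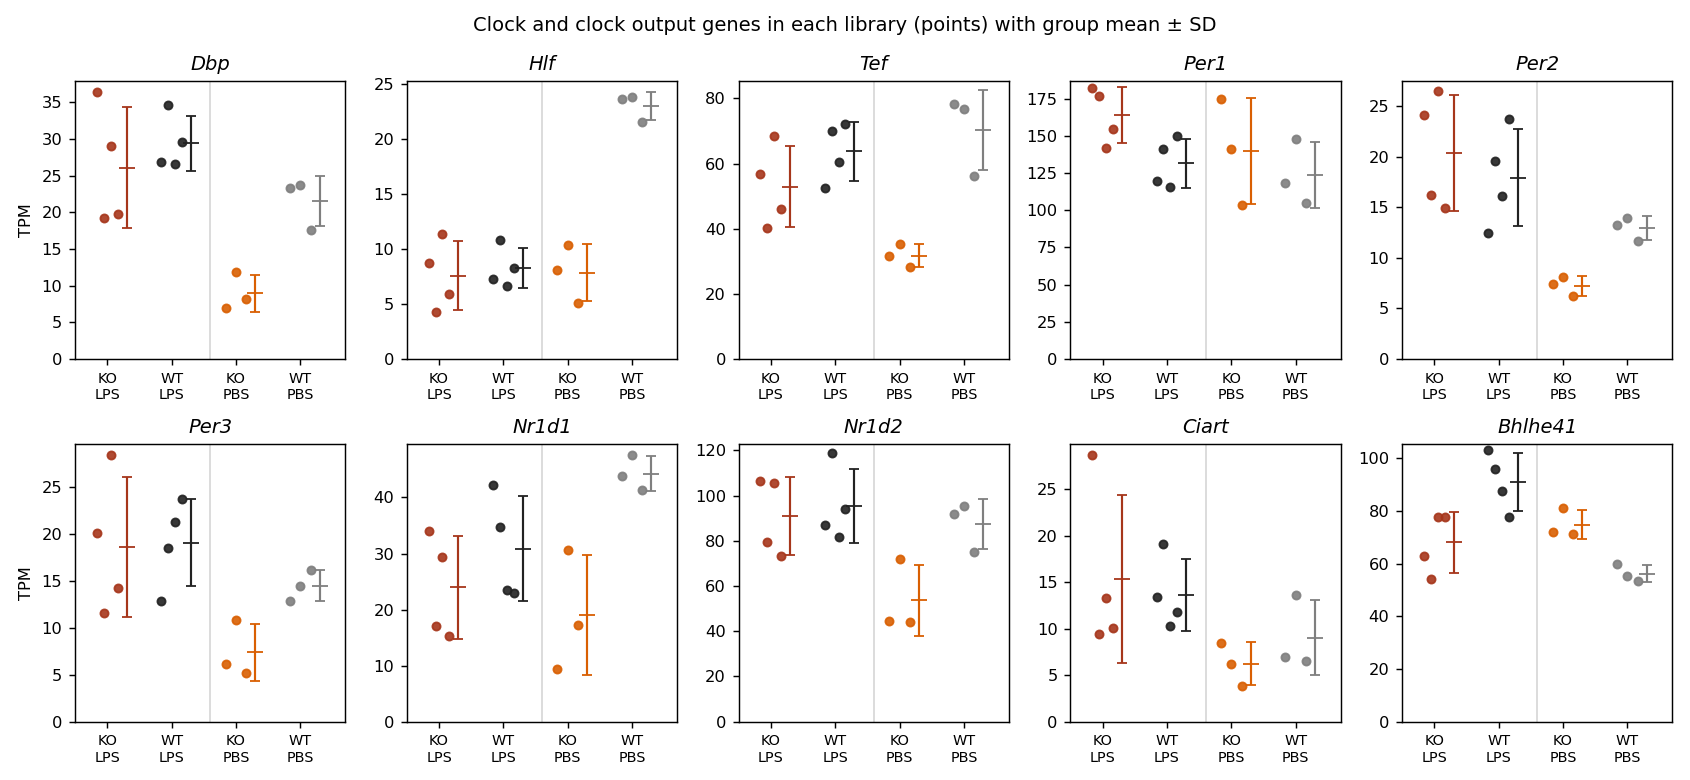
Levels of the 10 clock genes in TPM (vertical axes from 0) in each KO and WT library under LPS and under PBS (points), with the group mean and SD as bars. Under PBS, KO points lie below WT points without overlap for Dbp, Hlf, Tef, Per2, Per3, Nr1d1 and Nr1d2 and above them for Bhlhe41, and under LPS all 10 genes overlap between the genotypes.

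In the fit over all genes, 3 of the 10 genes were called between KO and WT under PBS, where 1.02% of the 18724 genes tested were called, at an adjusted p under 0.05. They were Dbp, Hlf and Tef, and all 3 were lower in KO, where 0.224% of all genes were called lower and 0.796% higher. Of the 10 genes 8 had a negative difference, against 50.4% of all genes. Without overlap and lower in KO were 7 of 10, where 10.9% of all genes were, and 1 of 10 was without overlap and higher, where 14.9% were. The median log2 difference was -0.85 over the 10 genes and -0.00 over all genes tested. The genes were chosen with these values known, so nothing is read from these counts. The calls rested on all 6 PBS libraries: none of the 10 genes was called when KO_PBS_911, KO_PBS_912, KO_PBS_915, WT_PBS_904 or WT_PBS_913 was left out, and 1, Tef, when WT_PBS_914 was. Sizes moved less, and without both libraries rich in growth hormone the log2 differences were -1.33 for Dbp, -1.53 for Hlf and -1.27 for Tef.

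The other parts of the clock were read from 22 further genes, all of them tested. Like every list here, these 22 were chosen with earlier results of these data known. Of these, 1 was called under PBS, where 1.02% of all genes were. Wee1, a kinase that holds back mitosis and is transcribed under the clock in mouse liver, had 2.46, 3.78 and 2.42 TPM in KO PBS libraries, against 8.49, 8.82 and 5.61 TPM in WT PBS libraries. It was lower in KO by a log2 difference of -1.15 ± 0.24 (SE, limma adjusted p = 0.0474), in 3 of 3 libraries, and the call was lost when any of the 6 PBS libraries was left out, with limma adjusted p between 0.0689 and 0.166. Genes without overlap and lower in KO numbered 6 of 22 (Rora, Rorb, Cry2, Bhlhe40, Fbxl21 and Wee1), where 10.9% of all genes were. Without overlap and higher was 1, Csnk1e, where 14.9% of all genes were. Rorb parted narrowly, at 1.42 TPM in KO_PBS_912 against 1.43 TPM in WT_PBS_904, and had 9 reads in its lowest library. The median log2 difference over the 22 genes was -0.10.

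Of the genes that run opposite to Dbp and Nr1d1 in other mouse tissues, none was called between KO and WT under PBS. Arntl had 11, 10.4 and 12.2 TPM in KO libraries and 10.5, 12.5 and 11.4 TPM in WT libraries, a log2 difference of -0.03 ± 0.21 (SE, limma adjusted p = 0.967). Clock, which oscillates weakly, averaged 27.8 ± 1 TPM in KO and 29.1 ± 1.63 TPM in WT (SD, n = 3 each, limma adjusted p = 0.823). Npas2 averaged 2.12 ± 0.738 TPM in KO and 2.28 ± 0.317 TPM in WT libraries (SD, n = 3 each, limma adjusted p = 0.912). All 3 activator genes overlapped between the genotypes. Cry1, a late repressor, averaged 13.7 ± 2.61 TPM in KO and 13.8 ± 0.943 TPM in WT libraries (SD, n = 3 each, limma adjusted p = 0.977). Nfil3, the D-box repressor, averaged 16 ± 0.884 TPM in KO and 22.3 ± 6.35 TPM in WT (SD, n = 3 each, limma adjusted p = 0.454). These differences did not pass the test, which does not show that the levels were alike.

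Of the remaining loop genes, Rora, an activator of Arntl, averaged 7.62 ± 0.705 TPM in KO PBS and 11.6 ± 0.827 TPM in WT PBS libraries (SD, n = 3 each, limma adjusted p = 0.23). Cry2, a CLOCK and BMAL1 repressor, averaged 11.2 ± 1.7 TPM in KO and 15.3 ± 0.681 TPM in WT (SD, n = 3 each, limma adjusted p = 0.209). Bhlhe40, the E-box repressor DEC1, averaged 11.2 ± 1.26 TPM in KO and 19.8 ± 2.81 TPM in WT (SD, n = 3 each, limma adjusted p = 0.0511). Bhlhe40 was thus lower and its close relative Bhlhe41 higher in all 3 KO libraries, without either being called.

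**Figure D2:**
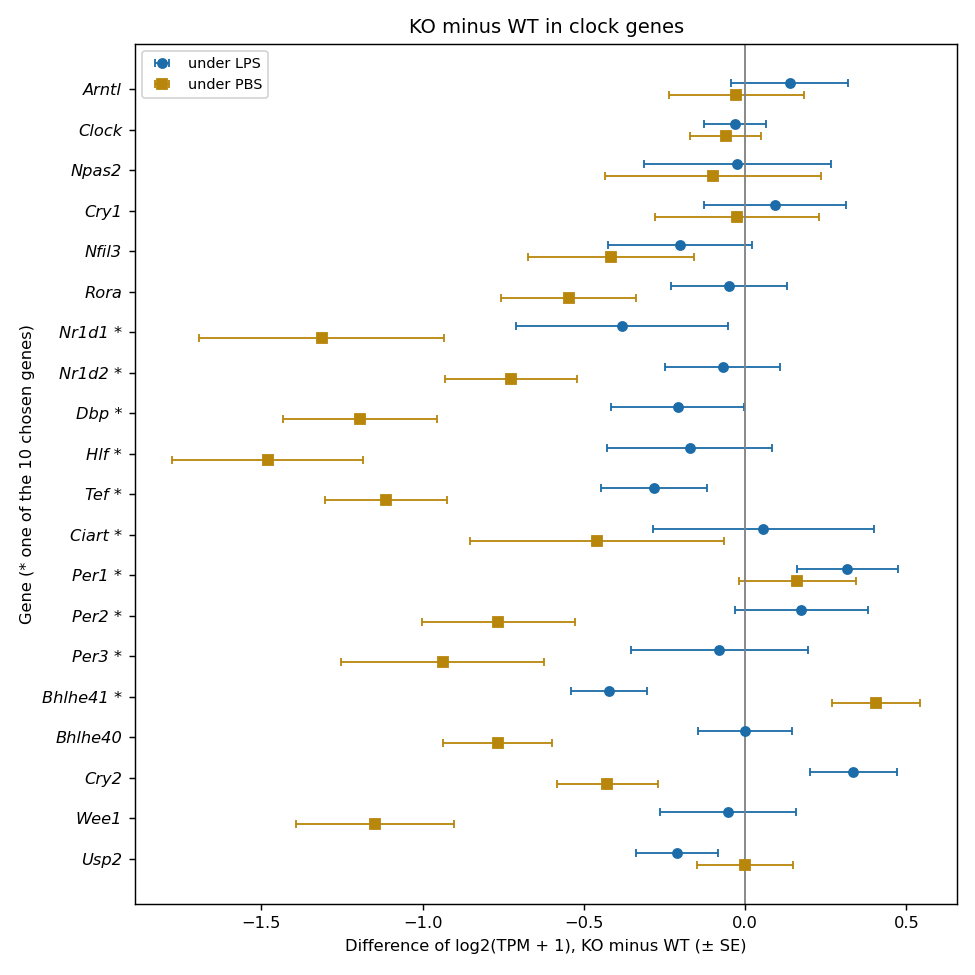
Difference of log2(TPM + 1), KO minus WT, under LPS (circles) and under PBS (squares), with the SE of the fit as bars, for 10 clock genes (marked with an asterisk) and 10 other clock genes. Under PBS, Hlf at -1.48, Nr1d1 at -1.31 and Dbp at -1.19 lie far left of Arntl at -0.03 and Clock at -0.06, and under LPS the same 3 lie between -0.38 and -0.17.

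Under LPS the 10 genes overlapped between KO and WT without exception. Dbp had 36.4, 19.2, 29.1 and 19.7 TPM in KO LPS libraries 1 to 4, against 26.8, 34.6, 26.6 and 29.6 TPM in WT LPS libraries 1 to 4. Hlf had 8.69, 4.25, 11.4 and 5.91 TPM in KO, against 7.31, 10.8, 6.68 and 8.3 TPM in WT. Tef had 56.9, 40.3, 68.4 and 46.1 TPM in KO, against 52.6, 70.0, 60.5 and 72.1 TPM in WT. In each of the 3 genes the WT libraries lay inside the range of the KO libraries or reached just above it. The log2 differences were -0.21 ± 0.21 for Dbp, -0.17 ± 0.26 for Hlf and -0.28 ± 0.16 for Tef (SE).

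The repressor genes were spread as widely in LPS libraries. Nr1d1 had 34.1, 17.1, 29.4 and 15.3 TPM in KO LPS, against 42.3, 34.7, 23.5 and 22.9 TPM in WT LPS libraries. Nr1d2 had 106, 79.4, 105 and 73.2 TPM in KO, against 87.1, 119, 81.5 and 93.9 TPM in WT. Per2 had 24.1, 16.2, 26.5 and 14.9 TPM in KO, against 12.5, 19.6, 16.1 and 23.7 TPM in WT. KO libraries 1 and 3 were the higher pair for all 3 genes, and libraries 2 and 4 the lower pair. Per3 had 20.1, 11.5, 28.4 and 14.3 TPM in KO, against 12.8, 18.4, 21.3 and 23.7 TPM in WT. Per1 had 182, 177, 142 and 155 TPM in KO, against 119.6, 142, 116 and 149.7 TPM in WT. Per1 was higher in KO by mean, at 164 ± 18.9 TPM against 132 ± 16.6 TPM in WT (SD, n = 4 each), with overlap. Ciart had 28.7, 9.4, 13.3 and 10.1 TPM in KO, against 13.4, 19.1, 10.3 and 11.8 TPM in WT, and its KO mean of 15.4 ± 9.02 TPM (SD, n = 4) leaned on library 1. Bhlhe41 had 62.7, 54.1, 77.7 and 77.6 TPM in KO, against 103, 95.9, 87.5 and 77.6 TPM in WT. Bhlhe41 thus stood on the other side than under PBS, with a log2 difference of -0.42 ± 0.12 (SE) and groups that met at 77.6 TPM.

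None of the 10 genes was called between KO and WT under LPS, where 0.497% of all genes were (0.256% higher and 0.24% lower), and 1 of the 10 had an unadjusted p under 0.05. With median-of-ratios scaling or with voom on the recovered reads, 1 of the 10, Bhlhe41, was called, at log2 differences of -0.51 and -0.52. No gene of the 10 was without overlap in either direction, where 1.96% of all genes were lower and 4.22% higher without overlap. Of the 10 genes 7 had a negative difference, against 37.1% of all genes, and the median log2 difference was -0.13 over the 10 genes and 0.07 over all genes tested. None of the 22 other clock genes was called by limma or by voom, and 2 had an unadjusted p under 0.05. Csnk1d and Btrc were without overlap and higher in KO LPS libraries. Arntl had 4.35, 3.84, 4.65 and 4.97 TPM in KO LPS, against 6.11, 3.8, 3.92 and 2.55 TPM in WT LPS libraries (limma adjusted p = 0.819), and Wee1 had 10.8, 5.53, 9.03 and 9.24 TPM in KO, against 8.34, 10.9, 9.12 and 7.11 TPM in WT. Both genes overlapped.

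LPS and PBS libraries are set side by side next, within each genotype. These comparisons carry the sex-linked transcripts and the Gm23935 share with them. Over all genes tested the median log2 difference LPS minus PBS was -0.22 in KO and -0.28 in WT as deposited. After median-of-ratios scaling that median was 0.00 in both. Scaled values are therefore added for Dbp, Hlf and Arntl and where the sign of 1 of the 10 genes turned. In KO, Dbp averaged 26.1 ± 8.24 TPM under LPS (SD, n = 4) and 8.98 ± 2.53 TPM under PBS (SD, n = 3), and in WT 29.4 ± 3.73 TPM under LPS (SD, n = 4) and 21.6 ± 3.46 TPM under PBS (SD, n = 3). Its log2 differences were 1.42 ± 0.22 in KO and 0.44 ± 0.22 in WT (SE), and 1.67 and 0.76 after median-of-ratios scaling. The order of the 4 Dbp means was therefore KO PBS, WT PBS, KO LPS, WT LPS, in which each of the last 3 overlapped with its neighbour, and all WT LPS libraries lay above all WT PBS libraries.

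Hlf went the other way in WT. It averaged 7.56 ± 3.14 TPM in KO LPS (SD, n = 4) and 7.86 ± 2.61 TPM in KO PBS libraries (SD, n = 3), and 8.28 ± 1.82 TPM in WT LPS (SD, n = 4) and 23 ± 1.29 TPM in WT PBS libraries (SD, n = 3). The 3 WT PBS libraries stood above the other 11 libraries, which overlapped by group between 4.25 and 11.4 TPM. The log2 difference was -0.08 ± 0.28 in KO and -1.39 ± 0.28 in WT (SE), and 0.15 in KO and -1.08 in WT after median-of-ratios scaling, so the sign in KO turned with the scaling. Tef, its close relative, averaged 52.9 ± 12.4 TPM in KO LPS and 63.8 ± 9.01 TPM in WT LPS libraries (SD, n = 4 each), against 31.7 ± 3.48 TPM in KO PBS and 70.4 ± 12.2 TPM in WT PBS libraries (SD, n = 3 each). KO PBS was the low group, and the other 3 groups overlapped. In WT the Tef difference was -0.14 ± 0.18 (SE) as deposited and 0.19 after median-of-ratios scaling, a change of sign.

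Among the repressors, Per2 averaged 20.4 ± 5.74 TPM in KO LPS (SD, n = 4) and 7.23 ± 0.957 TPM in KO PBS libraries (SD, n = 3), with 18 ± 4.81 TPM in WT LPS (SD, n = 4) and 13 ± 1.2 TPM in WT PBS libraries (SD, n = 3). Per3 averaged 18.6 ± 7.45 TPM in KO LPS (SD, n = 4) and 7.39 ± 3.05 TPM in KO PBS (SD, n = 3), with 19.1 ± 4.66 TPM in WT LPS (SD, n = 4) and 14.5 ± 1.65 TPM in WT PBS (SD, n = 3). In both genes KO PBS was the lowest group, apart from the others, and WT LPS overlapped with KO LPS and with WT PBS. Nr1d2 averaged 91.1 ± 17.3 TPM in KO LPS (SD, n = 4) and 53.6 ± 15.8 TPM in KO PBS (SD, n = 3), with 95.4 ± 16.5 TPM in WT LPS (SD, n = 4) and 87.5 ± 10.9 TPM in WT PBS (SD, n = 3). Nr1d1 averaged 24 ± 9.21 TPM in KO LPS (SD, n = 4) and 19.1 ± 10.7 TPM in KO PBS (SD, n = 3), with 30.8 ± 9.37 TPM in WT LPS (SD, n = 4) and, its highest mean, 44.3 ± 3.14 TPM in WT PBS libraries (SD, n = 3). Its KO LPS and KO PBS libraries overlapped, as did its WT LPS and WT PBS libraries. Bhlhe41 averaged 68 ± 11.7 TPM in KO LPS (SD, n = 4) and 74.7 ± 5.45 TPM in KO PBS (SD, n = 3), with 91 ± 10.9 TPM in WT LPS (SD, n = 4) and 56.1 ± 3.29 TPM in WT PBS (SD, n = 3). All WT LPS libraries lay above all WT PBS libraries, at a log2 difference of 0.68 ± 0.13 (SE), while the KO groups overlapped at -0.15 ± 0.13 (SE), or 0.12 after median-of-ratios scaling.

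In KO, 6 of the 10 genes were called between LPS and PBS, all of them higher under LPS (Dbp, Tef, Per2, Per3, Nr1d2 and Ciart), where 34.7% of all genes were called, 7.82% higher and 26.9% lower. The same 6 genes did not overlap and were higher, where 9.52% of all genes were, and none was lower without overlap, where 31.3% were. A negative difference was found for 2 of the 10 in KO, against 67.3% of all genes, and for 3 of the 10 in WT, against 71.1%. In WT, 2 of the 10 were called, Bhlhe41 higher and Hlf lower, where 42% of all genes were called, 7.95% higher and 34.1% lower. Without overlap were Dbp and Bhlhe41 as higher and Hlf as lower in WT, where 8.45% of all genes were higher and 37.4% lower. In WT the count became 4 with median-of-ratios scaling or quantile normalisation, which added Per2 and Dbp as higher, and 5 with voom. In KO, Ciart lost its call without any of KO_PBS_912, KO_PBS_915, KO_LPS_1 or KO_LPS_3. The median log2 difference over the 10 genes was 0.73 in KO and 0.23 in WT. These comparisons share their KO PBS and WT PBS libraries with the KO to WT comparison under PBS.

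**Figure D3:**
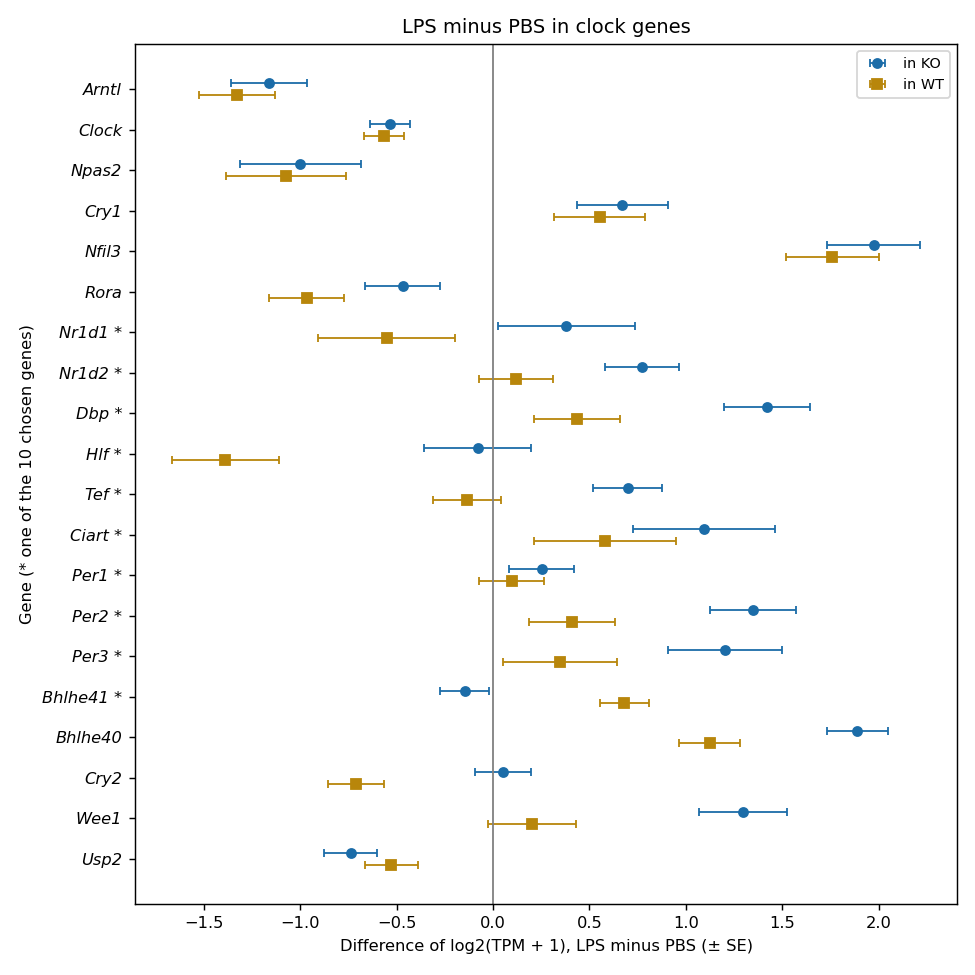
Difference of log2(TPM + 1), LPS minus PBS, in KO (circles) and in WT (squares), with the SE of the fit as bars, for the 10 clock genes (marked with an asterisk) and 10 other clock genes, on values as deposited. Arntl lies at -1.16 in KO and -1.33 in WT, whereas Dbp lies at 1.42 in KO and 0.44 in WT and Hlf at -0.08 in KO and -1.39 in WT.

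Among the 22 other clock genes, 14 were called between LPS and PBS in KO, 4 higher and 10 lower, and 16 in WT, 2 higher and 14 lower. Of all genes, 34.7% were called in KO, 7.82% higher and 26.9% lower, and 42% in WT, 7.95% higher and 34.1% lower. With median-of-ratios scaling the 22 genes split into 6 higher and 4 lower in KO, with 8 of the 14 calls kept. In WT they split into 5 higher and 9 lower, with 11 of the 16 kept. That scaling called 4260 of the 18724 genes in KO, 2356 higher and 1904 lower, and 5495 in WT, 2999 higher and 2496 lower. Over all genes the share of calls that were higher was 22.6% as deposited and 55.3% scaled in KO, and 18.9% as deposited and 54.6% scaled in WT. Arntl fell under every scaling, to 4.45 ± 0.483 TPM in KO LPS (SD, n = 4) against 11.2 ± 0.875 TPM in KO PBS libraries (SD, n = 3, limma adjusted p = 0.00071), and to 4.09 ± 1.48 TPM in WT LPS (SD, n = 4) against 11.4 ± 0.988 TPM in WT PBS libraries (SD, n = 3, limma adjusted p = 0.000346). Its log2 differences were -1.16 in KO and -1.33 in WT, and -0.93 and -1.04 after median-of-ratios scaling. Clock fell to 19 ± 2.16 TPM in KO LPS, against 27.8 ± 1 TPM in KO PBS (limma adjusted p = 0.00176), and to 19.4 ± 1.85 TPM in WT LPS, against 29.1 ± 1.63 TPM in WT PBS (limma adjusted p = 0.00126). Npas2 was at 0.605 ± 0.596 TPM in KO LPS, with 0 in library 4, and at 2.12 ± 0.738 TPM in KO PBS (limma adjusted p = 0.0253), and it was at 0.596 ± 0.405 TPM in WT LPS and 2.28 ± 0.317 TPM in WT PBS (limma adjusted p = 0.0152). Its call in KO did not hold with a pseudocount of 0.1, median-of-ratios scaling, the compared groups alone or voom. The KO call was also lost without KO_PBS_911, KO_PBS_915, KO_LPS_1 or KO_LPS_4. In WT the Npas2 call did not hold with a pseudocount of 0.1 or with voom.

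Nfil3 and Bhlhe40 rose under LPS in both genotypes and under every scaling. Nfil3, which is also known as a cytokine-induced gene in immune cells, averaged 68.3 ± 20.2 TPM in KO LPS (SD, n = 4) and 16 ± 0.884 TPM in KO PBS libraries (SD, n = 3, limma adjusted p = 8.43e-05), and 77.3 ± 17.8 TPM in WT LPS (SD, n = 4) and 22.3 ± 6.35 TPM in WT PBS libraries (SD, n = 3, limma adjusted p = 0.000225). Bhlhe40 averaged 44.9 ± 10.2 TPM in KO LPS (SD, n = 4) and 11.2 ± 1.26 TPM in KO PBS (SD, n = 3, limma adjusted p = 6.17e-06), and 44.2 ± 4.53 TPM in WT LPS (SD, n = 4) and 19.8 ± 2.81 TPM in WT PBS (SD, n = 3, limma adjusted p = 0.000267). Wee1 rose in KO, by a log2 difference of 1.30 (limma adjusted p = 0.000968), while in WT the difference was 0.20 (limma adjusted p = 0.506). Cry1 averaged 22.4 ± 3.76 TPM in KO LPS and 13.7 ± 2.61 TPM in KO PBS (limma adjusted p = 0.0438). This call was lost with no filter, no intensity trend or voom, and without both libraries rich in growth hormone. It was also lost without KO_PBS_912, KO_PBS_915, KO_LPS_1, KO_LPS_3 or KO_LPS_4. In WT, Cry1 averaged 21.8 ± 7.51 TPM under LPS and 13.8 ± 0.943 TPM under PBS (limma adjusted p = 0.0788). With median-of-ratios scaling the Cry1 difference in WT was called, at 0.87 against 0.55 as deposited. Cry2 fell in WT, to 9.02 ± 1.01 TPM under LPS against 15.3 ± 0.681 TPM under PBS (limma adjusted p = 0.00235), and averaged 11.7 ± 1.94 TPM under LPS and 11.2 ± 1.7 TPM under PBS in KO (limma adjusted p = 0.819). Rora fell in WT, to 5.5 ± 1.06 TPM under LPS against 11.6 ± 0.827 TPM under PBS (limma adjusted p = 0.00215), and in KO averaged 5.36 ± 1.57 TPM under LPS and 7.62 ± 0.705 TPM under PBS (limma adjusted p = 0.0793).

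Kinase, ubiquitin ligase and deubiquitinase genes of the clock were among those called lower under LPS, where 26.9% of all genes were called lower in KO and 34.1% in WT as deposited. The casein kinase 1 gene Csnk1e, which phosphorylates Per proteins, fell by 0.89 on the log2 scale in KO (limma adjusted p = 0.000232) and by 0.76 in WT (limma adjusted p = 0.000723), and kept its call in both with median-of-ratios scaling. Usp2, a clock-controlled deubiquitinase, fell by 0.74 in KO (limma adjusted p = 0.0014) and by 0.53 in WT (limma adjusted p = 0.00898), and kept its call with median-of-ratios scaling in KO alone. Calls for Btrc, Csnk2a1, Fbxw11 and Gsk3b were lost with that scaling in both genotypes. The log2 differences of these 4 lay between -0.48 and -0.32 in KO and between -0.73 and -0.39 in WT.

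**Figure D4:**
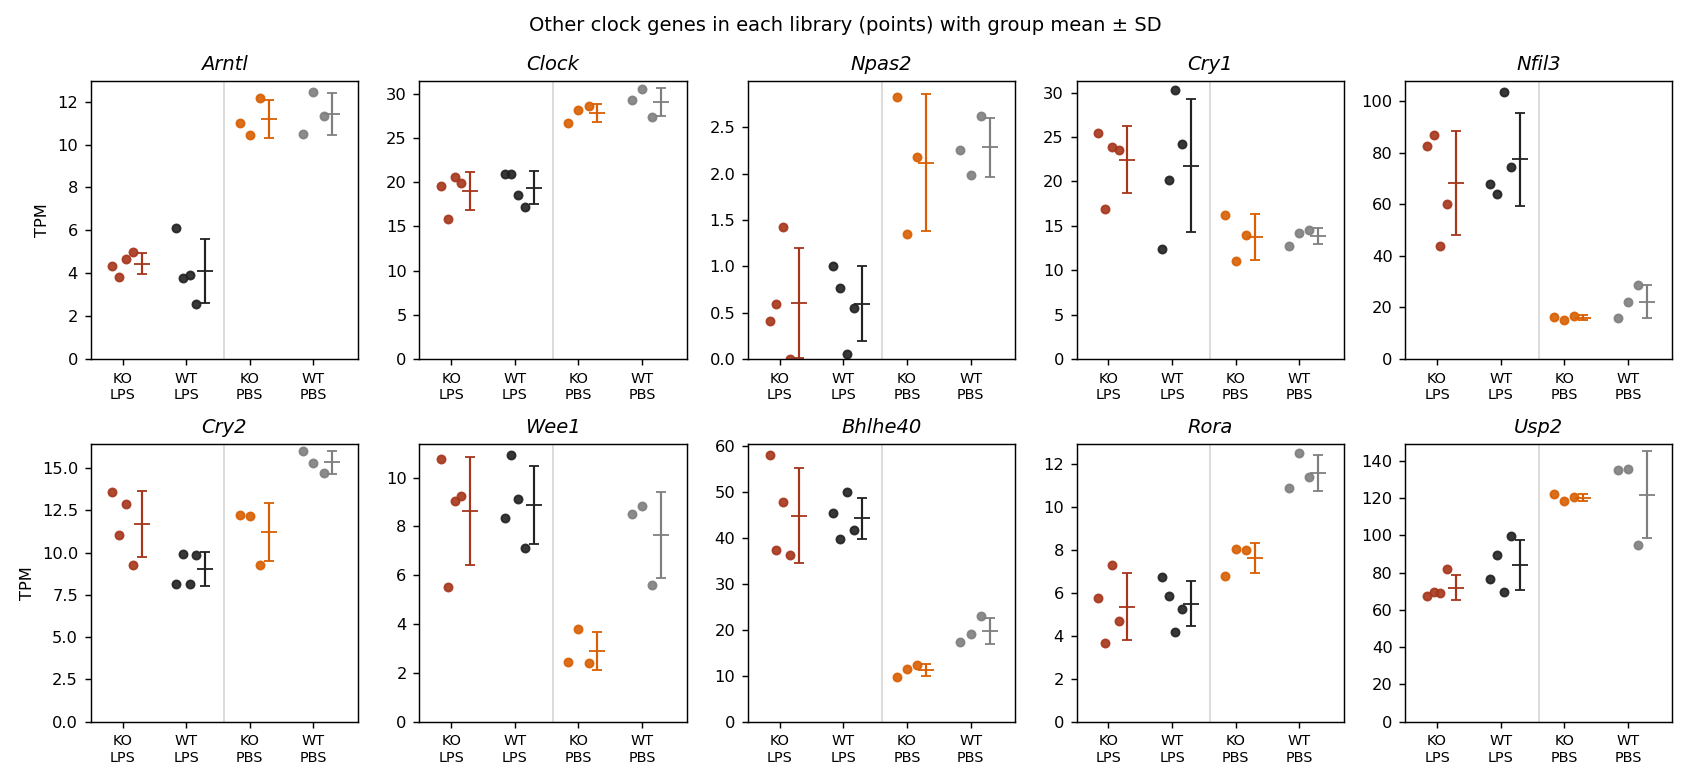
Levels of 10 other clock genes in TPM (vertical axes from 0) in each library (points), with the group mean and SD as bars, by genotype and treatment. KO and WT points under PBS overlap for Arntl, Clock, Npas2, Cry1, Nfil3 and Usp2 and part for Wee1, Cry2, Bhlhe40 and Rora, and Arntl lies at 6.11 TPM or less in all LPS libraries and at 10.4 TPM or more in all PBS libraries.

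The difference between the differences was itself fitted. No gene of the 18724 (0%) was called for the interaction of genotype and treatment, by limma or by voom on the recovered reads, and 1780 had an unadjusted p under 0.05 by limma. For the 10 genes the interaction, which is the KO minus WT difference under LPS less that under PBS, was 1.31 ± 0.39 for Hlf, 0.98 ± 0.32 for Dbp, 0.94 ± 0.32 for Per2, 0.93 ± 0.50 for Nr1d1, 0.86 ± 0.42 for Per3, 0.83 ± 0.25 for Tef and 0.66 ± 0.27 for Nr1d2 (log2, SE). It was -0.83 ± 0.18 for Bhlhe41, 0.52 ± 0.52 for Ciart and 0.16 ± 0.24 for Per1. Hence a different KO effect under LPS and PBS was not called for any of the 10, nor for Wee1 (limma adjusted p = 0.417), Bhlhe40 (limma adjusted p = 0.413) or Cry2 (limma adjusted p = 0.397).

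Levels were next set side by side by phase of the genes, as the time of day of collection is not given. A shift of time in a running clock can move genes of opposite phase in opposite directions. The ratio of Dbp to Arntl is given as a rough guide, though it also falls when Dbp alone is lower. Under PBS this ratio was 0.628, 1.13 and 0.677 in KO libraries and 2.23, 1.90 and 1.55 in WT libraries. Nr1d1 over Arntl was 0.859 to 2.93 in KO and 3.65 to 4.17 in WT, and Per2 over Arntl 0.510 to 0.775 in KO and 1.02 to 1.26 in WT. All 3 ratios were lower in KO without overlap. They restate the lower Dbp, Nr1d1 and Per2 given above, genes chosen with these values known, and are no separate result. Arntl itself differed by -0.03 ± 0.21 (log2, SE) and Clock, Npas2 and Cry1 by -0.06 ± 0.11, -0.10 ± 0.33 and -0.03 ± 0.25. Per1, also among the genes named above as high by day into the evening in mouse liver, differed by 0.16 ± 0.18. Collection time is not in the labels, the part of it in the KO to WT difference was not tested, and libraries of 1 time each cannot separate a shifted phase from a changed amplitude.

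Between LPS and PBS, the ratio of Dbp to Arntl did not overlap in either genotype. It was 3.97 to 8.38 in KO LPS and 0.628 to 1.13 in KO PBS libraries, and 4.39 to 11.6 in WT LPS and 1.55 to 2.23 in WT PBS libraries. In KO, Arntl and Clock fell while Dbp, Tef, Per2, Per3 and Nr1d2 were higher, with Nr1d1 overlapping. In WT, Arntl and Clock fell, and of the 10 genes Bhlhe41 was called higher and Hlf lower. Dbp was higher in all WT LPS libraries at a log2 difference of 0.44 that was not called, and Per2, Per3, Nr1d2, Tef and Nr1d1 overlapped, the last 2 with differences of -0.14 and -0.55. Nfil3 and Cry1, which run late with Arntl in mouse liver, were higher by mean under LPS. Collection time, LPS, the sex-linked transcripts, the Gm23935 share and the make-up of cells cannot be told apart in this comparison.

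Stimuli that reset Per genes were followed through 2 lists, of glucocorticoid response and of immediate early genes. None of the 12 glucocorticoid response genes was called between KO and WT under PBS or LPS by limma, where 1.02% and 0.497% of all genes were. Of the 12, 3 and 1 had an unadjusted p under 0.05, against 2935 and 2183 of the 18724 genes tested. Their summed level was 2094 to 2915 TPM in KO LPS, 2351 to 2962 TPM in WT LPS, 3235 to 4726 TPM in KO PBS and 3373 to 5114 TPM in WT PBS libraries. None of the 16 immediate early genes was called in either, with 6 and 0 at an unadjusted p under 0.05. KO_PBS_911, the library with the highest Per1 under PBS, also had the highest sum of the PBS libraries. KO_LPS_1 had the highest Per1 and the highest sum, 13136 TPM, of the LPS libraries. KO_LPS_2, next in Per1 at 177 TPM, had a sum of 6827 TPM, close to the lowest, 6816 TPM in KO_LPS_3. Between LPS and PBS the glucocorticoid response list held 6 calls in KO, 2 of them up and 4 down, and 6 in WT, 1 up and 5 down. Of all genes tested, 34.7% were called in KO, 7.82% up and 26.9% down, and 42% in WT, 7.95% up and 34.1% down. Ddit4 fell by 1.88 in KO (limma adjusted p = 0.00103) and by 1.69 in WT (limma adjusted p = 0.00194), Sgk1 fell by 1.67 in KO (limma adjusted p = 0.000265) and by 1.26 in WT (limma adjusted p = 0.00159), and Mt2 rose by 1.93 in KO (limma adjusted p = 0.00232) and by 1.10 in WT (limma adjusted p = 0.0388). The immediate early list of 16 held 4 calls in KO, 3 up and 1 down, and 6 in WT, 4 up and 2 down. The same shares of all genes apply, and no response of either list is read from these counts. Ier3 rose by 2.61 in KO (limma adjusted p = 2.87e-05) and by 2.96 in WT (limma adjusted p = 1.45e-05), and Jun fell by 1.15 in KO (limma adjusted p = 0.00282) and by 0.79 in WT (limma adjusted p = 0.0189). Their part in the levels of the clock genes was not tested.

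No endothelial and mural, astrocyte or neuronal marker was called between KO and WT under PBS by limma. The 13 endothelial and mural markers summed to 779, 868 and 1532 TPM in KO PBS libraries and to 1799.5, 2387 and 1299.7 TPM in WT PBS libraries, with overlap. All 13 had a negative log2 difference, at a median of -0.69, where 50.4% of all genes were negative. Of the 13, 1 had an unadjusted p under 0.05. Pecam1 and Kdr did not overlap, where 10.9% of all genes were lower without overlap. Astrocyte markers summed to 371 to 509 TPM in KO PBS and 381 to 628 TPM in WT PBS libraries, with overlap. Neuronal markers summed to 14.9 to 25.3 TPM in KO and 28.4 to 286 TPM in WT, without overlap. The top neuronal value was in WT_PBS_914. No marker list was at 0 as a whole, and of the defining pituitary markers Lhb alone was at 0 in all libraries. The part of other cells in the result was not tested.

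**Figure D5:**
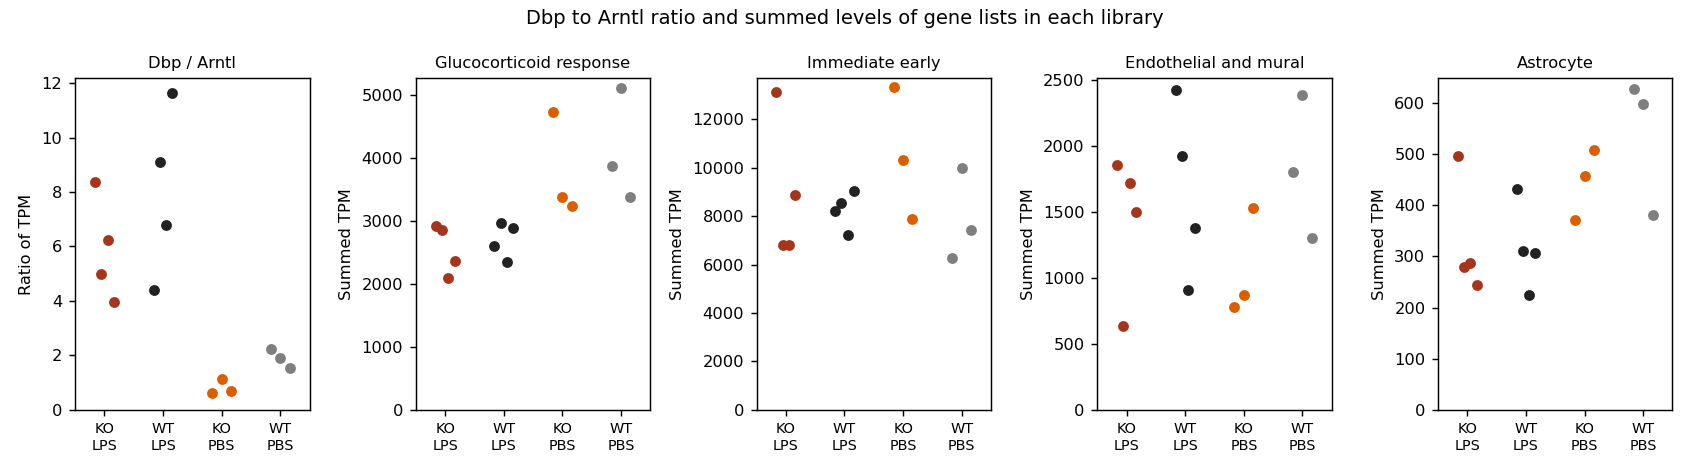
Ratio of Dbp to Arntl and summed TPM of 12 glucocorticoid response genes, 16 immediate early genes, 13 endothelial and mural markers and 8 astrocyte markers in each library (points, axes from 0). The ratio is at most 1.13 in KO PBS and at least 1.55 in WT PBS libraries, while each of the 4 summed lists overlaps between KO and WT under PBS. The neuronal and lymphocyte sums, not drawn here, do not overlap under PBS.

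Under PBS most of the 10 genes had their highest and lowest values in the same libraries. KO_PBS_912 was the highest of its group for 8 of the 10 genes and KO_PBS_915 the lowest for 8, WT_PBS_913 the highest for 7 and WT_PBS_914 the lowest for 9. Under LPS, KO_LPS_1 and KO_LPS_3 were the highest for 5 genes each and KO_LPS_2 the lowest for 6, while in WT LPS no library was the highest for more than 4 genes or the lowest for more than 5. With log2(TPM + 1) centred within each treatment over 14 libraries, a profile that keeps the KO to WT difference, each gene was set against the mean of the other 9. Pearson's r was 0.941 for Nr1d2, 0.934 for Hlf, 0.916 for Dbp, 0.878 for Tef, 0.813 for Per2, 0.797 for Per3, 0.747 for Nr1d1 and 0.636 for Ciart, against -0.102 for Per1 and -0.297 for Bhlhe41. Values of a library share its cells and depth, so these describe these libraries.

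The genes whose centred profile was most like the mean of the 10, among 11059 genes of at least 5 TPM on average, were Vangl1 (r = 0.877 over 14 libraries), Wee1 (r = 0.872), Rpgrip1l (r = 0.851), Ift122 (r = 0.842) and Myo1d (r = 0.836). Least like it were P4hb (r = -0.845), Alox5ap (r = -0.836) and Spint1 (r = -0.821). Vangl1, a planar polarity gene, averaged 6.45 ± 0.963 TPM in KO PBS and 10.9 ± 2.73 TPM in WT PBS libraries (SD, n = 3 each), and P4hb, a protein disulfide isomerase, averaged 614 ± 18.7 TPM in KO PBS and 495 ± 14.5 TPM in WT PBS libraries (SD, n = 3 each). Of the 22 other clock genes, Rora had r = 0.784, Cry2 r = 0.706 and Bhlhe40 r = 0.677 with the profile, whereas Arntl had r = -0.114 and Cry1 r = 0.0766.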

How the data were processed

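Microglial RNA from 14 libraries is described. TRIZOL extraction and a universal Illumina kit are named, per the labels' protocols, with no statement on strand. Per the submitters' processing notes, the tools were featureCounts 2.0.1, STAR 2.7.10b, cutadapt 4.4 and FastQC 0.11.9; these notes name hg38, although the gene IDs are mouse. The authors' deposited table holds TPM for 41739 genes, that is, reads per gene length scaled to the same total in every library, with 12553 genes at 0 throughout; 41588 IDs matched a symbol of the reference table.

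Reads behind the values were recovered with GENCODE M21 exon lengths, as whole multiples of 1 unit per library for 98.4% to 98.7% of values (tolerance 0.02 reads), and serve to give depth and an alternative fit. A linear model of log2(TPM + 1), with 4 group means and an intensity trend, was fitted in limma 3.58.1 (R 4.3.3) over 18724 genes of at least 1 TPM in at least 3 libraries. Benjamini-Hochberg adjustment ran over all of them, with adjusted p under 0.05 as the threshold for a call; the steps were tested on simulated data. Every adjusted p in the text is from limma. P-values set a difference between groups against the spread between libraries, pooled over the 4 groups, and that spread may be technical.

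The 10 genes and all gene lists were chosen with earlier results of these data known. Values are named for the 10 genes, for Arntl, Clock, Npas2, Cry1, Cry2, Nfil3, Rora and Bhlhe40, for other clock genes that were called, for up to 3 called genes per direction of the glucocorticoid response and immediate early lists, and for the 5 genes most and the 3 least like the mean profile; Rheb checks the labels and part of what this covers is not reported here. Other settings were pseudocounts of 0.1 and 5, no filter, a filter at 5 TPM, median-of-ratios scaling, quantile normalisation, the compared groups alone, no intensity trend, a replicate block, leaving out WT_PBS_914 with KO_LPS_3, leaving out each library, and voom on the recovered reads, the last chosen after seeing the data. Marker lists covered microglia and 10 other cell groups.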

Additional observations from a re-analysis of the deposited data

Results flagged for a closer look

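In groups of 4 libraries, 2 of 64 group levels of clock genes had a library apart from the others by Dixon's criterion, which chance gives in about 1 of 20 groups. Fbxl21, a Cry ubiquitin ligase subunit, stood at 1.91 TPM in KO_LPS_3 and at 0.450 to 0.607 TPM in the other 3 KO LPS libraries. KO_LPS_3 is also the LPS library that held growth hormone transcripts, and the part of those cells was not tested. Usp2 stood at 81.9 TPM in KO_LPS_4, the library of the lowest depth, and at 67.2 to 69.7 TPM in the others. None of the 10 genes listed above was among them.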

How the results depend on the processing

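Directions of the 10 genes between KO and WT under PBS held under all 16 other settings, except that of Per1 without KO_PBS_911. Counts of calls moved more. For KO to WT under PBS, 191 genes were called as main value, and 79 with no filter, 387 with quantile normalisation, 109 with the compared groups alone, 65 with no intensity trend and 19 without both libraries rich in growth hormone. Of the 10 genes 3 were called, against 1 with no filter, with no trend or without both hormone-rich libraries, and 0 with the compared groups alone. Of the 22 other clock genes 1 was called, against 2 with a pseudocount of 0.1, a filter at 5 TPM or quantile normalisation, and 0 with a pseudocount of 5, no filter, the compared groups alone, no trend, without both hormone-rich libraries or with voom.

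For KO to WT under LPS, 93 genes were called, against 32 with no filter, 141 with a filter at 5 TPM, 170 with median-of-ratios scaling, 211 with quantile normalisation, 0 with the compared groups alone (2183 genes had an unadjusted p under 0.05 in the limma fit of all groups), 47 with no trend, 8 without both hormone-rich libraries and 247 with voom; of the 10 genes 0 were called, against 1 with median-of-ratios scaling and with voom. With a replicate block by number 23 genes were called, and none of the clock genes. Deviations of same-numbered KO and WT LPS libraries had r of 0.0608, -0.0563, -0.0862 and -0.0260, and those of other pairs -0.0918 to 0.0937. Such values show no deviation shared by number, but cannot settle whether the numbers pair the samples, which is not stated. For LPS to PBS in WT, 2 of the 10 genes were called, against 4 with median-of-ratios scaling or quantile normalisation and 5 with voom. For LPS to PBS in KO, 6494 genes were called, against 4260 with median-of-ratios scaling and 4150 with voom, and 14 other clock genes, against 9 with voom. For the interaction 0 genes were called, against 3 with a pseudocount of 0.1 or without both hormone-rich libraries, 2 with median-of-ratios scaling and 1 with a pseudocount of 5, no filter, quantile normalisation or no trend. Nono reversed between LPS and PBS in WT, at -0.10 as deposited and 0.23 with median-of-ratios scaling and with voom. The causes were not tested.

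Leaving out 1 library gave 8 to 50 genes, 0 to 1 of the 10 and 0 other clock genes under PBS, 18 to 99, 0 and 0 under LPS, 5803 to 7602, 2 and 16 to 17 for LPS to PBS in WT, 4613 to 6195, 5 to 6 and 11 to 13 in KO, and 0 to 2 genes for the interaction. Depth limits Npas2, Fbxl21, Arntl2, Rorb, Wee1 and Ciart most among the clock genes, with 0, 7, 9, 9, 41 and 49 reads in their lowest library. With 3 or 4 libraries a group, differences that were not called are not shown to be absent.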

Other observations

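Marker lists of cells not described above were read beside the clock genes, first as values under PBS. Oligodendrocyte lineage markers summed to 353 to 422 TPM in KO and 319 to 572 TPM in WT libraries. Border macrophage markers summed to 938 to 1243 TPM in KO and 531 to 1132 TPM in WT, and monocyte markers to 221 to 338 TPM in KO and 207 to 911.2 TPM in WT. Neutrophil markers summed to 4907 to 7770.0 TPM in KO and 5440 to 22527 TPM in WT, lymphocyte markers to 4.57 to 7.10 TPM in KO and 7.43 to 28.8 TPM in WT, and pituitary markers to 3.66 to 179 TPM in KO and 132 to 89212 TPM in WT. Choroid plexus and ependymal markers summed to 11147 to 25894 TPM in KO and 16517 to 21860 TPM in WT libraries. The lymphocyte lists did not overlap, and the others but for neurons did. WT_PBS_914 held the top WT value for monocytes, neutrophils, lymphocytes and pituitary cells. Under LPS, monocyte markers summed to 1060 to 1675 TPM in KO and 1018 to 2097 TPM in WT, above PBS in both genotypes. Neutrophil markers summed to 11071 to 24010 TPM in KO, above PBS, and 8913 to 21299 TPM in WT, with overlap. Choroid plexus and ependymal markers summed to 4008 to 14585 TPM in KO, with overlap, and 2346 to 8822 TPM in WT, below PBS. The part of these cells in the LPS to PBS differences was not tested.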
